A study of Mus musculus with 15 samples.

Results

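Cmpk2, Rsad2 and 7 further interferon-stimulated genes (Ifit1, Ifit3, Isg15, Irf7, Usp18, Oasl2 and Ifih1) were followed in kidney RNA of mice with and without Grhl1, a transcription factor of epithelia. These 9 genes, among 22180 genes with a probe set of their own, were picked by name as interferon-stimulated genes, and the probe sets annotated to 1 of them alone were taken, which gave 1 probe set per gene. Cmpk2 and Rsad2 lie next to each other on chromosome 12, the chromosome of Grhl1 itself, with 0 annotated genes between them in the RefSeq table of GRCm38.p6. The other 7 lie elsewhere, Ifit1 and Ifit3 on chromosome 19, Isg15 on 4, Irf7 on 7, Usp18 on 6, Oasl2 on 5 and Ifih1 on 2. The question was whether the chromosome 12 pair was lower together with interferon-stimulated genes on other chromosomes or apart from them. Since low values of Cmpk2 and Rsad2 in the knockout kidneys of these same mice led to this choice, the genotype differences of the 9 genes are a description, and nothing is read from whether they passed a threshold. The comparison had 7 Grhl1+/+ mice (wild type, replicates 1 to 7) and 8 Grhl1-/- mice (knockout, replicates 8 to 15), all untreated as far as the labels say and about 6 months old, with 1 array per mouse. The sources used here do not give how the Grhl1 allele was made, nor the strain, sex, litters or array batches of the animals.

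Interferons are cytokines that warn cells of viruses. Sensors of foreign RNA and DNA switch on interferon genes, the secreted interferon binds a receptor on the same or neighbouring cells, and the signal then activates interferon-stimulated genes through a DNA element called the interferon-stimulated response element. Many interferon-stimulated genes are also transcribed at a low level without infection. Cmpk2 encodes a mitochondrial nucleotide kinase, and Rsad2 encodes viperin, a radical SAM enzyme that turns CTP into an antiviral nucleotide analogue. The pair is neighbouring in many vertebrates and is induced together by interferon.

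The stretches upstream of the start sites are shown because the genes are grouped by their response to interferon, and the response element is the sequence through which that response runs. RefSeq's promoter table for GRCm38.p6 held a window for 8 of the 9 genes. The 250 bases before the start were searched for GAAA, then any 2 bases, then GAAA, a core of the response element, and for its reverse complement (TTTC, any 2 bases, TTTC), with overlapping matches counted. Of 32851 windows of this length in the table, 978 (2.98%) held a match. Among the 8 genes, Rsad2, Ifit1, Ifit3 and Isg15 held a match and Cmpk2, Irf7, Oasl2 and Ifih1 did not, which says only that these letters are not in this window. The sequences of the pair, and of Ifit1 and Isg15 for comparison, read from 5′ to 3′ on the strand of the gene, with matches in capitals.

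Cmpk2, chr12:26468965-26469214, plus strand: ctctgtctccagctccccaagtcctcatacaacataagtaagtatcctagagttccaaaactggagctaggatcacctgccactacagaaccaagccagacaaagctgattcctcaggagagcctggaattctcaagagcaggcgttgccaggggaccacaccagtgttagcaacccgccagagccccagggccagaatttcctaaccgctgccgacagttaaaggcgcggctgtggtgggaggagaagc

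Rsad2, chr12:26456453-26456702, minus strand: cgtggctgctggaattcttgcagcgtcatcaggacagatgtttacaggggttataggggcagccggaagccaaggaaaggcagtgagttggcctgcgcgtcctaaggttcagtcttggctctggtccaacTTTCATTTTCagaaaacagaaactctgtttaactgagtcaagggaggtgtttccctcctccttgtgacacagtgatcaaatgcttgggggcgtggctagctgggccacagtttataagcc

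Ifit1, chr19:34640639-34640888, plus strand: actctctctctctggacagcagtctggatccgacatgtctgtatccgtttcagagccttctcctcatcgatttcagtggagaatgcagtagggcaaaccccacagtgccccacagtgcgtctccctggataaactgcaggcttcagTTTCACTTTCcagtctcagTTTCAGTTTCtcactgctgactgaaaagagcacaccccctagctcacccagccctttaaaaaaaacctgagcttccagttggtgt

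Isg15, chr4:156200819-156201068, minus strand: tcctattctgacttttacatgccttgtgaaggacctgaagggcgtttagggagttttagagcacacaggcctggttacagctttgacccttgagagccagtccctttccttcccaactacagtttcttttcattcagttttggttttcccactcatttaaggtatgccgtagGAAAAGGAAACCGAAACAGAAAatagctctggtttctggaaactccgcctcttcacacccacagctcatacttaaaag

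In Rsad2 the match began 120 bases before the start. Ifit1 held 2 matches, beginning 104 and 85 bases before the start, and Isg15 held 3 overlapping ones, of which the first began 78 and the last 66 bases before it.

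All values below are log2 RMA summaries of a probe set, on which 1 unit is a doubling, differences are knockout minus wild type, and each group is given by its mean ± SD (wild type n = 7, knockout n = 8). Standard errors (SE) of differences come from limma, fitted on all 23521 probe sets with a single gene symbol, except where said. Grhl1, as the check of the labels, read 4.96 to 5.25 in wild-type and 4.40 to 4.92 in knockout kidneys, so that its groups did not overlap. Its difference was -0.38 (SE 0.07, limma adjusted p = 0.113), from a dim probe set with 28.6% of probe sets below its mean. The tissue label was checked with 11 measured genes that define kidney, such as Cdh16 and Slc5a2, whose mean lay between 11.50 and 11.77 in every mouse. The mean of 3 Y-linked genes separated the mice into 10 with (8.37 to 8.68) and 5 without (3.96 to 4.26) such transcripts, the latter being replicates 6 and 7 of the wild type and 13 to 15 of the knockout. Liver transcripts were high in 3 mice, and adrenal cortex transcripts in 6, of which 4 were knockouts.

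Cmpk2 was lower in the knockout kidneys. In the wild-type mice, from replicate 1 to 7, its probe set read 8.85, 8.71, 8.58, 8.77, 8.88, 8.70 and 8.82. In the knockout mice, from replicate 8 to 15, it read 8.64, 8.18, 8.32, 8.41, 8.32, 8.15, 8.43 and 8.41. Of the 8 knockout mice, 7 lay below every wild-type mouse, and the groups overlapped through wild-type replicate 3 and knockout replicate 8 alone. The wild-type mean was 8.76 ± 0.11 and the knockout mean 8.36 ± 0.16, which differ by -0.40 (SE 0.07), so that the knockout mean was 75.7% of the wild-type mean on the linear scale. Of all probe sets, 0.782% had a lower difference.

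Rsad2 was lower as well, by less. Its wild-type readings, in the order of replicates 1 to 7, were 8.89, 8.76, 9.06, 8.79, 8.97, 8.62 and 8.79. Its knockout readings, for replicates 8 to 15, were 8.70, 8.60, 8.53, 8.44, 8.62, 8.58, 8.62 and 8.68. The groups overlapped, because wild-type replicate 6 (8.62) lay within the knockout range, while the other 6 wild-type mice lay above every knockout mouse. The wild-type mean of 8.84 ± 0.15 stood against 8.60 ± 0.08 in knockout mice. The difference was -0.24 (SE 0.06), which put the knockout mean at 84.4% of the wild-type mean, and 1.79% of all probe sets had a lower difference.

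The values of both genes were set beside what else differed among the mice. Among the mice with Y-linked transcripts, the difference was -0.39 for Cmpk2 and -0.32 for Rsad2, and among those without, -0.43 and -0.08. In the 4 wild-type and 4 knockout mice with neither liver nor adrenal transcripts, Cmpk2 differed by -0.38 and Rsad2 by -0.17. With genotype means subtracted, the adrenal cortex list mean had an r of -0.58 with Cmpk2 and -0.02 with Rsad2. For the liver list mean these were -0.09 and 0.05. The part of these tissues in the values of the pair was not tested. B and plasma cell markers were lower in the knockout group in 9 of 9 measured genes, with 0 past limma's threshold and 3 at an unadjusted p under 0.05 (0 and 4 in the exact rank-sum test), and their list mean ranged from 6.32 to 7.23 in wild-type and from 5.97 to 7.31 in knockout mice. Jchain, the joining chain of secreted antibodies, read 9.09 ± 0.55 in wild-type and 8.10 ± 0.92 in knockout mice (SE of the difference 0.36, limma adjusted p = 0.738), and Tnfrsf17, a plasma cell receptor, differed by -0.36 (SE 0.13, limma adjusted p = 0.738). Macrophage and myeloid markers were lower in 17 of 19, with 0 past limma's threshold and 1 at an unadjusted p under 0.05 (0 and 0 in the exact rank-sum test), and ranged from 6.74 to 7.09 and from 6.62 to 7.16, with the Fc receptor gene Fcgr3 at -0.19 (SE 0.09, limma adjusted p = 0.894) and the adaptor gene Tyrobp at -0.20 (SE 0.12, limma adjusted p = 0.973). Over all probe sets 0.0128% passed limma's threshold and 5.55% had an unadjusted p under 0.05. With genotype means subtracted, the B and plasma cell list mean had an r of -0.18 with Cmpk2 and 0.28 with Rsad2. For the macrophage and myeloid list mean these were 0.24 and 0.07. The part of these cells in the Cmpk2 and Rsad2 values was not tested, and in whole-kidney RNA fewer cells of a type and less RNA per cell cannot be told apart. The exact rank-sum test called no probe set of the array (smallest adjusted p = 0.252), so its 0 calls for any list carry no information.

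**Figure D1:**
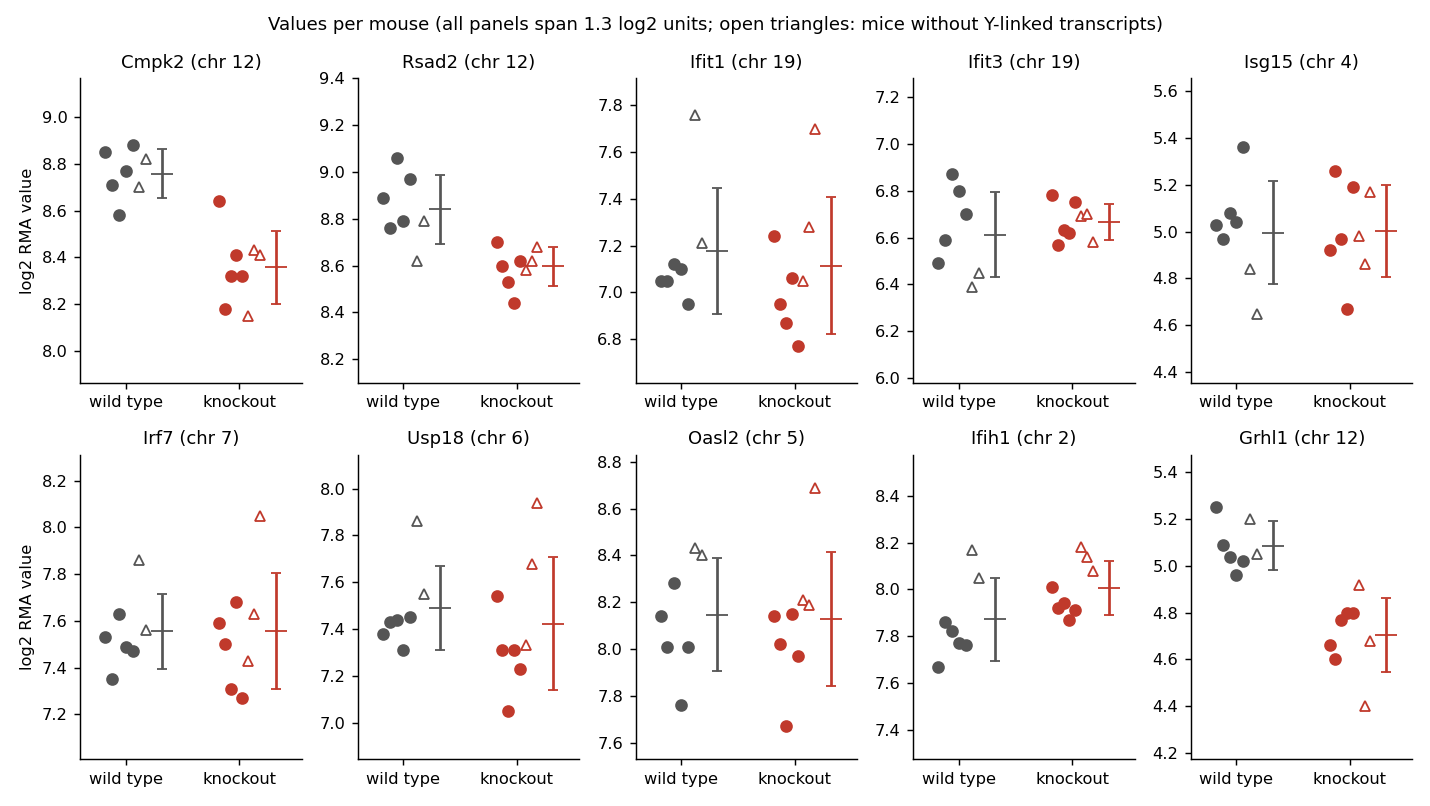
Log2 RMA value (y axis) of each of the 9 genes and of Grhl1 in every mouse, by genotype; points are mice, open triangles are mice without Y-linked transcripts, and the bar beside each group is its mean ± SD. Cmpk2 (8.58 to 8.88 in wild-type, 8.15 to 8.64 in knockout mice) and Rsad2 sit lower in knockout mice. Of the 7 genes on other chromosomes, Ifih1 overlaps only through the 2 wild-type mice without Y-linked transcripts, and the others overlap broadly between the genotypes.

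The 7 genes on other chromosomes were not lower together with the pair. Their differences ran from -0.07 to 0.14 with a median of 0.00, 3 of them below 0 and 4 above, against a median of 0.008 over all probe sets, whose 5th and 95th percentiles were -0.15 and 0.16. Of these 7, 6 differed by less than 0.1 in size.

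Ifit1 encodes a protein that binds foreign RNA and blocks its translation, and Ifit3 belongs to the same family. Ifit1 read 6.95 at the lowest, 7.10 at the median and 7.76 at the highest in wild-type mice, and 6.77, 7.06 and 7.70 in knockout mice. The high ends were wild-type replicate 6 and knockout replicate 15, the groups overlapped over most of their range, and the difference was -0.06 (SE 0.13). Ifit3 read 6.39 to 6.87 in wild-type and 6.57 to 6.78 in knockout mice, a difference of 0.05 (SE 0.07).

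Isg15 is a ubiquitin-like protein that is attached to other proteins after interferon, and Usp18 is the protease that removes it and also dampens the interferon receptor. Isg15 read 4.65 to 5.36 in wild-type and 4.67 to 5.26 in knockout mice, a difference of 0.01 (SE 0.10), from a dim probe set with 30.7% of probe sets below its mean. Usp18 read 7.31 to 7.86 and 7.05 to 7.94, a difference of -0.07 (SE 0.12). Both ranges overlapped almost whole.

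Irf7 is the transcription factor that amplifies interferon production, Oasl2 belongs to the oligoadenylate synthetase family of antiviral proteins, and Ifih1 encodes MDA5, a sensor of long double-stranded RNA. Irf7 differed by 0.00 (SE 0.10), with 7.35 to 7.86 in wild-type and 7.27 to 8.05 in knockout mice. Oasl2 differed by -0.02 (SE 0.13), with 7.76 to 8.43 and 7.67 to 8.69. Ifih1 was the gene with the highest difference, 0.14 (SE 0.07), with 7.67 to 8.17 in wild-type and 7.87 to 8.18 in knockout mice. It lay on the side opposite to Cmpk2 and Rsad2. Among the mice with Y-linked transcripts, Ifih1 read 7.67 to 7.86 in wild-type and 7.87 to 8.01 in knockout mice, without overlap. The ranges overlapped through the 2 wild-type mice without these transcripts.

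Per mouse, the mean of the pair minus the mean of the 7 other genes was 1.83, 1.70, 1.64, 1.74, 1.83, 1.33 and 1.69 in the wild type (replicates 1 to 7). In the knockout (replicates 8 to 15) it was 1.50, 1.31, 1.50, 1.37, 1.46, 1.24, 1.32 and 1.09. Wild-type replicate 6 lay inside the knockout range, and the other 6 wild-type mice lay above all knockout mice. The difference between the group means was -0.33, made up of -0.32 in the pair and 0.01 in the 7 other genes. Its SE of 0.08 comes from the spread of these values within each group and not from limma. It was -0.32 among the mice with Y-linked transcripts and -0.29 among those without. Over all probe sets 0.0128% passed limma's adjusted threshold of 0.05 (0.00425% as higher and 0.0085% as lower in knockout mice), 5.55% had an unadjusted p under 0.05, and in 0.123% the groups did not overlap. Of the 9 genes, 0 passed in limma or in the exact rank-sum test, 2 (Cmpk2 and Rsad2) had an unadjusted p under 0.05 in each, and 0 separated without overlap. The exact rank-sum test called no probe set of the array, its smallest adjusted p being 0.252. As the choice of the genes used this contrast, these counts are printed for completeness and carry no evidence of their own.

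**Figure D2:**
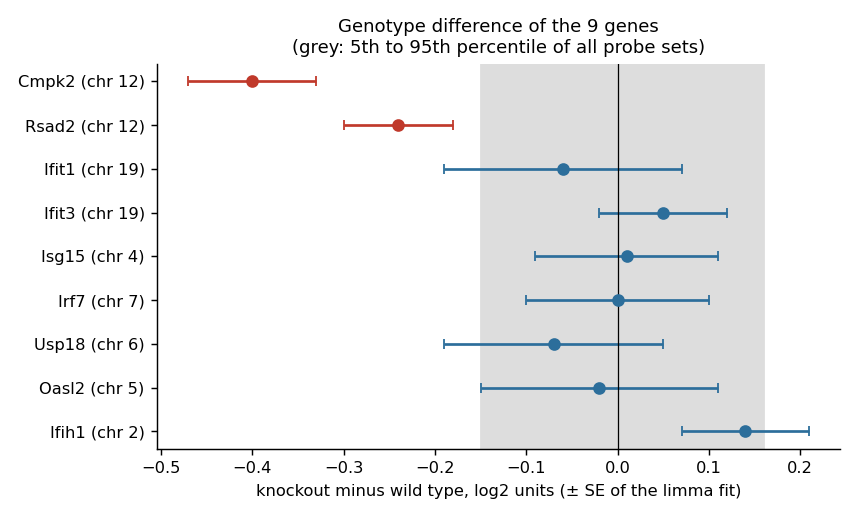
Knockout minus wild-type difference in log2 units (x axis) of the 9 genes, each with its chromosome; points are differences, bars are the SE of the limma fit over 7 wild-type and 8 knockout mice, and the grey band spans the 5th to the 95th percentile of all probe sets (-0.15 to 0.16). Cmpk2 (-0.40) and Rsad2 (-0.24) lie outside the band, and the 7 genes on other chromosomes lie inside it.

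Differences between mice of the same genotype did not enter the choice of genes, so they could be tested for whether the pair varied with the other 7. A family of 20 relations was computed with exact permutation tests of pairings, two-sided, for Cmpk2 with Rsad2 and for each of the 9 genes with the mean of the genes on other chromosomes (a gene's own values left out), in each genotype apart. Adjusted p-values below are Benjamini-Hochberg values over these 20.

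No relation between Cmpk2 and Rsad2 passed at this sample size. Across the 7 wild-type mice Pearson's r was -0.05 and Spearman's rho 0.21 (exact permutation p = 0.921 and 0.662, adjusted p = 0.969 and 0.735). Across the 8 knockout mice r was 0.36 and rho 0.67 (exact permutation p = 0.370 and 0.0831, adjusted p = 0.494 and 0.237). Single mice set these values. Without wild-type replicate 3, which had the lowest Cmpk2 and the highest Rsad2 of its group, r was 0.91 and passed (exact permutation, adjusted p = 0.0417), and without knockout replicate 8 it was -0.01. With the 2 mice farthest from the median Rsad2 left out, r was 0.85 in wild-type mice (without replicates 3 and 5) and 0.48 in knockout mice (without replicates 8 and 11).

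Cmpk2 was not found to vary with the genes on other chromosomes either. In wild-type mice r was -0.44 and rho -0.36 (exact permutation p = 0.341 and 0.444, adjusted p = 0.488 and 0.593), and r turned to 0.57 without replicates 3 and 6. In knockout mice r was 0.31 and rho 0.52 (exact permutation p = 0.437 and 0.197, adjusted p = 0.547 and 0.393), with r = 0.43 without replicates 10 and 15. For Rsad2 the wild-type r was -0.31 and rho 0.04 (exact permutation p = 0.490 and 0.963, adjusted p = 0.577 and 1). It became 0.30 without replicates 3 and 6, and 0.71 without replicate 6 alone (exact permutation, adjusted p = 0.375). In knockout mice Rsad2 had an r of 0.62 and a rho of 0.71 (exact permutation p = 0.105 and 0.0576, adjusted p = 0.234 and 0.237), with r = 0.49 without replicates 10 and 15.

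Genes on other chromosomes did vary together in the knockout mice. Usp18 followed the mean of the other 6 with r = 0.96 and a rho of 1 (exact permutation p = 2.48e-05 and 4.96e-05, each the smallest that the 40320 orders of 8 mice can give for it, adjusted p = 0.000496 and 0.000992). Oasl2 had an r of 0.92 and a rho of 0.83 (exact permutation, adjusted p = 0.0169 and 0.145), and Ifit1 an r of 0.92 and a rho of 0.81 (exact permutation, adjusted p = 0.0177 and 0.145), so that these passed by r and not by rho. These 3 were the relations that passed by r among the 20. Without replicates 10 and 15, the farthest from the median of the other genes, r was 0.87 for Usp18, 0.82 for Ifit1 and 0.61 for Oasl2, and none of the 3 passed over the 6 mice left. The Ifit1 call ended without replicate 14, where r was 0.92, or 15, where it was 0.77. The Oasl2 call ended without replicate 10 or 12, where r was 0.91, or 15, where it was 0.77, while that of Usp18 stayed whichever knockout mouse was left out. In wild-type mice Usp18 had an r of 0.86 and a rho of 0.75 (exact permutation, adjusted p = 0.0913 and 0.237). Ifit1 had an r of 0.73 and Oasl2 of 0.53 there. Without wild-type replicate 6 these were 0.45, 0.11 and 0.18. Irf7 missed the threshold in both genotypes, with r = 0.89 in wild-type and 0.83 in knockout mice (exact permutation, adjusted p = 0.0686 for each). Ifit3 (-0.53 and -0.23) and Isg15 (-0.52 and -0.01) had r below 0 in both, and neither passed (exact permutation, adjusted p from 0.360 to 0.983).

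The same relations were computed within the mice that share Y-linked transcripts. Within the 10 mice that have them, with each genotype's mean subtracted, r with the genes on other chromosomes was 0.82 for Usp18, 0.56 for Oasl2, 0.47 for Ifit1, 0.69 for Rsad2 and 0.22 for Cmpk2. None of these passed over the 10 relations of that set (exact permutation within genotype, 14400 orders, adjusted p = 0.124 for Usp18 and 0.144 for Rsad2). Cmpk2 with Rsad2 had an r of 0.07 there. The mice without Y-linked transcripts, 2 wild-type and 3 knockout, were too few for a value of their own.

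**Figure D3:**
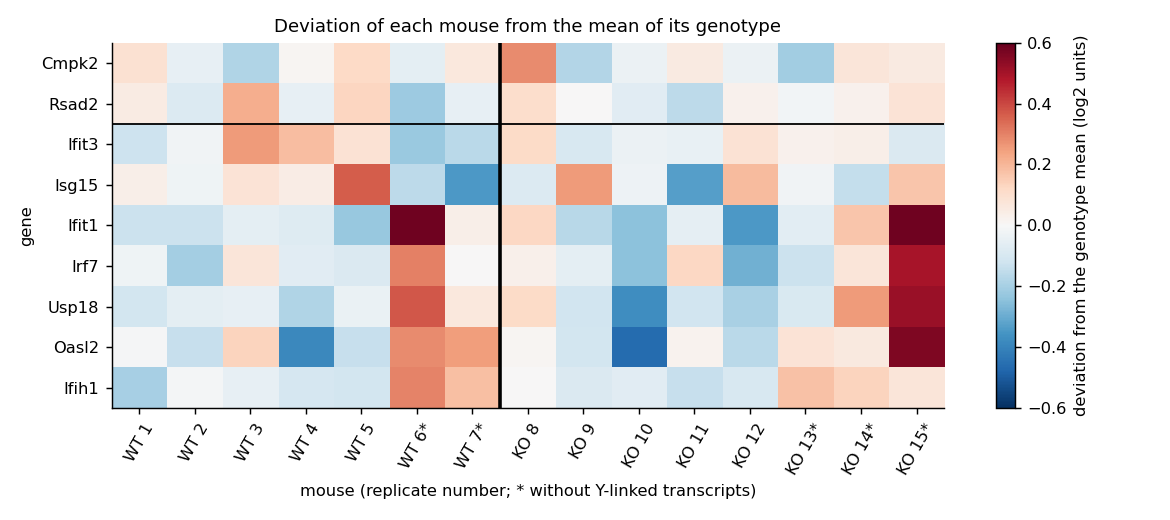
Deviation of each mouse (columns, WT wild type and KO knockout with replicate numbers, an asterisk marking mice without Y-linked transcripts) from the mean of its genotype, in log2 units (colour), for the 9 genes (rows). Ifit1, Irf7, Usp18, Oasl2 and Ifih1 have their highest wild-type value in replicate 6. Cmpk2, Rsad2, Ifit3 and Isg15 lie below their wild-type mean in that mouse. Knockout replicates 14 and 15 do not separate the rows in this way. Ifit1, Irf7, Usp18, Oasl2 and Ifih1 lie above their knockout mean in both mice, but so do Cmpk2 and Rsad2. Ifit3 does so in replicate 14 and Isg15 in replicate 15.

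As a description, all pairs were set side by side over the 15 mice after subtracting each genotype's mean, where the mice share a common normalisation. Ifit1, Irf7, Usp18, Oasl2 and Ifih1, a subset seen in these values, had r from 0.42 to 0.92 among themselves, with a median of 0.80 over 10 pairs. Cmpk2 had r from -0.13 to 0.26 with these 5, and Rsad2 from -0.33 to 0.10. Ifit3 and Isg15, although classical interferon-stimulated genes, had r from -0.41 to -0.32 and from -0.43 to -0.13 with the same 5. Ifit1 and Ifit3, members of one family on chromosome 19, had an r of -0.41. Rsad2 was closer to Ifit3 (0.63) and Isg15 (0.57), above which lay 0.789% and 1.59% of the 22180 genes in their likeness to Rsad2.

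Over the 15 mice, the neighbours did not rank close to each other among all genes. Single mice set their relation within a genotype: r was 0.91 in wild-type mice without replicate 3 and -0.01 in knockout mice without replicate 8. Cmpk2 with Rsad2 had an r of 0.14 over the 15 mice, and 34.9% of all genes were more like Cmpk2 than Rsad2 was. With the mean of the 7 other genes, Cmpk2 had an r of 0.11 and Rsad2 of 0.14, exceeded by 42.2% and 40.1% of all genes. These values span mice with and without Y-linked transcripts. Within the 10 mice with them, r was 0.69 for Rsad2 and 0.22 for Cmpk2. It was 0.82 there for Usp18, 0.56 for Oasl2, 0.51 for Irf7 and 0.47 for Ifit1, so Rsad2 did not stand apart from these genes in that set. For comparison, Usp18 had an r of 0.93 with the mean of the other 6, exceeded by 5 genes, Ifit1 and Irf7 each 0.84 and Oasl2 0.79, while Ifit3 had -0.35. The genes most like the mean of the 7 were Magee1 (r = 0.947), the microRNA gene Mir19a (0.941), Pld4, an endolysosomal exonuclease of immune cells (0.935), Clec4a1, a lectin receptor of myeloid cells (0.933), and Cybb, a subunit of the phagocyte oxidase (0.918). Those most like Cmpk2 were the olfactory receptor genes Olfr1145 (0.857) and Olfr514 (0.853), the intramembrane protease gene Sppl2b (0.844), Lyg2 (0.843) and the growth factor gene Pdgfa (0.842). Those most like Rsad2 were Platr5 (0.842), AAdacl4fm3 (0.832), Lpcat3, a phospholipid acyltransferase (0.818), Erfe, the iron-regulating hormone erythroferrone (0.811), and Tex11 (0.798). None of these 15 genes passed in limma for genotype.

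**Figure D4:**
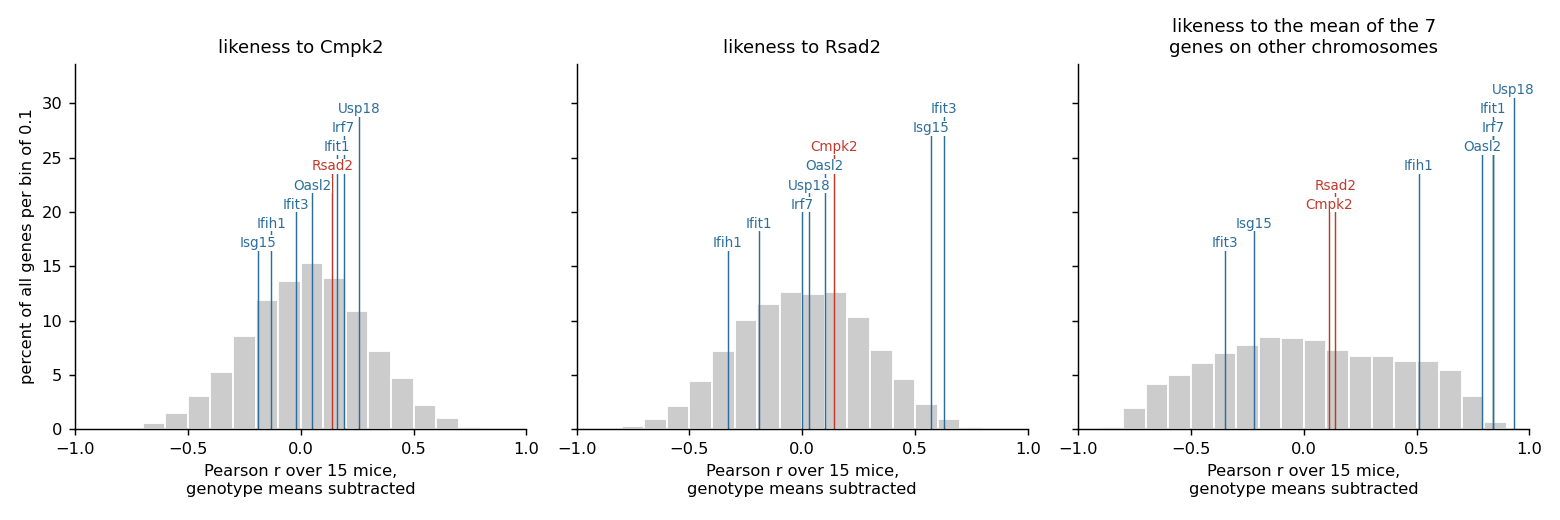
Share of all 22180 genes in percent (y axis) by Pearson r over 15 mice after subtracting genotype means (x axis), for likeness to Cmpk2, to Rsad2 and to the mean of the 7 genes on other chromosomes; lines mark the 9 genes, Cmpk2 and Rsad2 in red. In the right panel Usp18 (0.93), Ifit1, Irf7 and Oasl2 stand at the upper edge, and Cmpk2 (0.11) and Rsad2 (0.14) lie near the middle of all genes. The 15 mice include those with and without Y-linked transcripts, and within the 10 mice with them Rsad2 had an r of 0.69.

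Several of the genes on other chromosomes were higher in the mice without Y-linked transcripts. In a limma fit with genotype and the presence of these transcripts as terms, chosen after seeing the data, 24.9% of all probe sets passed for the presence of Y-linked transcripts, 3377 of 23521 probe sets (14.4%) as lower with them and 2483 (10.6%) as higher. Of the 9 genes, 4 passed as lower and 0 as higher. Ifih1 was lower by 0.26 log2 units with them (SE 0.04, adjusted p = 0.000395), reading 7.67 to 7.86 and 7.87 to 8.01 in wild-type and knockout mice with Y-linked transcripts and 8.05 to 8.17 and 8.08 to 8.18 in those without, so that these mice did not overlap. With them, Oasl2 was at -0.38 (SE 0.10, limma adjusted p = 0.0114), Ifit1 at -0.39 (SE 0.11, limma adjusted p = 0.0123) and Usp18 at -0.34 (SE 0.09, limma adjusted p = 0.0128). The calls of Ifit1 and Usp18 ended without wild-type replicate 6 (limma adjusted p = 0.0608 and 0.0529), and those of Oasl2 and Ifih1 without the mice with liver or adrenal transcripts where the differences were -0.40 and -0.27 over 8 mice (limma adjusted p = 0.0868 and 0.0576). Irf7 was at -0.22 (SE 0.10, limma adjusted p = 0.101) and, of the alternatives run, passed without knockout replicate 13. Neither gene of the chromosome 12 pair passed, with 0.02 (SE 0.07) for Cmpk2 and 0.05 (SE 0.06) for Rsad2, nor did Ifit3 (0.13, SE 0.07) or Isg15 (0.15, SE 0.10). Some markers of immune cells and of kidney differed in the same split. Of the macrophage and myeloid markers 7 of 19 passed as lower with Y-linked transcripts, and their list mean ranged from 6.62 to 6.92 in mice with and from 6.83 to 7.16 in mice without. Of the T and NK cell markers 3 of 13 passed as lower, with list means from 5.23 to 5.56 and from 5.41 to 5.87. Of the plasmacytoid dendritic cell markers 1 of 7 passed as lower, and of the B and plasma cell and the neutrophil markers 0 of 9 each. Of the kidney markers 6 of 11 passed as lower and 1 as higher, with list means from 11.50 to 11.62 in mice with and from 11.61 to 11.77 in mice without. Their part in the 4 calls was not tested, and as sex was not given, other features that the 5 mice may share cannot be told apart from it.

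None of the wider interferon pathway's genes passed for genotype, beside 0.0128% of all probe sets. Over 113 measured genes of 5 lists, the 9 genes aside, 58 were higher and 55 lower in knockout mice, with a median difference of 0.003. Of them, 0 differed by as much below 0 as Rsad2 or Cmpk2, where 1.79% and 0.782% of all probe sets had a lower difference. At such shares a count of 0 among 113 genes says little about these lists. In limma 0 of the 113 passed and 4 (3.54%) had an unadjusted p under 0.05, against 5.55% of all probe sets. The exact rank-sum test had 4 at an unadjusted p under 0.05. Its 0 calls add nothing here, since its smallest adjusted p over all probe sets was 0.252. For the presence of Y-linked transcripts, 41 of the 113 (36.3%) passed as lower with them and 4 as higher, beside 14.4% and 10.6% of all probe sets. Without the mice with liver or adrenal transcripts, 20 of the 113 passed as lower. The calls over all probe sets, both directions together, went from 5860 to 3131. The share of all probe sets called as lower in that fit was not computed, so the 20 have no like share beside them.

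Of ligands and receptors, 15 were measured, with differences from -0.07 to 0.23. The receptor subunit gene Ifngr2 read 9.12 ± 0.07 in wild-type and 9.24 ± 0.08 in knockout mice (0.11, SE 0.05, limma adjusted p = 0.818), and the ligand gene Ifnk 4.28 ± 0.16 and 4.42 ± 0.15 (0.14, SE 0.08, limma adjusted p = 0.940). Among 20 sensors and inducers, which ranged from -0.13 to 0.19, Cgas, the sensor of cytosolic DNA, differed by -0.13 (SE 0.06, limma adjusted p = 0.894) and the transcription factor gene Irf8 by 0.19 (SE 0.12, limma adjusted p = 0.973). Among 13 genes of signal transduction, which ranged from -0.09 to 0.13, Ptpn2, a phosphatase that switches off the pathway, differed by 0.13 (SE 0.05, limma adjusted p = 0.792). The receptor-associated kinase gene Tyk2 differed by 0.08 (SE 0.04, limma adjusted p = 0.900).

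Of 55 further interferon-stimulated genes, 28 were higher and 27 lower, between -0.21 and 0.36, and their mean was 6.96 ± 0.11 in wild-type and 6.96 ± 0.13 in knockout mice. Eif2ak2, which encodes the RNA-activated kinase PKR, differed by 0.17 (SE 0.06, limma adjusted p = 0.703), and Oas2 by -0.19 (SE 0.11, limma adjusted p = 0.950). Of 10 GTPases induced mainly by interferon gamma, which restrict intracellular microbes, 6 were higher and 4 lower, with Gbp4 at -0.21 (SE 0.16, limma adjusted p = 0.979) and Gbp5 at 0.06 (SE 0.10, limma adjusted p = 0.997).

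Genes flanking the pair on chromosome 12 were measured on each side. Toward Grhl1, the nearest measured gene was Rnf144a, a ubiquitin ligase gene, which read 7.95 to 8.25 in wild-type and 7.95 to 8.28 in knockout mice (0.01, SE 0.06, limma adjusted p = 0.998). The next was 4930480M12Rik (-0.10, SE 0.08, limma adjusted p = 0.979). On the far side the nearest measured genes were Gm20187 (0.08, SE 0.06, limma adjusted p = 0.976) and Gm9866 (0.02, SE 0.06, limma adjusted p = 0.997). The values of these 4 genes overlapped between the genotypes, with differences of at most 0.10 in size. They lie 3 and 5 places from the pair toward Grhl1 and 8 and 9 places on the far side in RefSeq's order, and the genes closer to the pair were not analysed here. Apart from Rnf144a, their wild-type means (3.26, 4.11 and 5.08) were below the array medians of 5.51 to 5.59, where differences are understated.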

How the data were processed

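Kidney RNA of 15 mice was measured on 1-colour arrays. Labelling started from 500 ng of total RNA (Ambion WT Expression), per the labels' protocols. The deposited values are log2 summaries of probe sets made by the authors with RMA, per the submitters' processing notes, whose version the sources used here do not give. RMA gives all arrays 1 distribution and compresses dim probe sets, so that their differences understate the change. The arrays' number limits the precision. Of 41345 probe sets, 23521 had exactly 1 gene symbol in the platform annotation (1814 had several), and 23328 of those symbols were updated by Entrez ID to RefSeq GRCm38.p6. Genotypes were compared with limma 3.58.1 in R 4.3.3 (lmFit, eBayes without trend, no covariate, two-sided, Benjamini-Hochberg over all 23521), tested on simulated data. Correlations used Python 3.11.15 with exact permutation. One probe set stood for a gene, the brightest on average.

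The genes, lists, rules and tests were chosen with earlier results of these data known. Besides the 9 genes, names in the text come from Grhl1, list members past the threshold (up to 4) or else the 2 with the smallest unadjusted p, the 5 genes most like each of 3 profiles, and up to 2 measured genes on each side of the pair. Of 14 lists, those for plasmacytoid dendritic cells (0 of 7 past limma's threshold), neutrophils (0 of 9), liver (0 of 12) and adrenal cortex (0 of 9) have their counts for genotype only here. At an unadjusted p under 0.05, limma had 0 genes of these lists, and the exact rank-sum test called 0 genes, with 2 liver genes at an unadjusted p under 0.05. Mice counted as having liver or adrenal cortex transcripts had a list mean more than 1 log2 unit above the median of all mice. Kidney (0 of 11), T and NK cell (0 of 13) and Y-linked genes (0 of 3) also had none past limma's threshold for genotype, with 0, 1 and 0 at an unadjusted p under 0.05 in limma and 1, 0 and 0 in the rank-sum test. Bst2 is in the interferon-stimulated and the dendritic cell list. The series counts mice, so each array is taken as 1 animal. No scanner files were used here.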

Additional observations from a re-analysis of the deposited data

Results flagged for a closer look

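In 78 groups of values, each of 7 wild-type or 8 knockout mice, 7 had a sample far from the others, where chance gives about 1 in 20 groups. All 7 were wild-type mice. Ifit1 was highest in wild-type replicate 6, at 7.76, with the next mouse at 7.21. The same mouse had the lowest gap between the chromosome 12 pair and the genes on other chromosomes, 1.33 against 1.64 in the next mouse, and the highest value of the kidney cadherin gene Cdh16, 12.004 against 11.85. Eif2ak2 was lowest in wild-type replicate 1, at 6.71 against 7.02. Gbp4 was lowest in wild-type replicate 4, at 4.64 against 5.25. The chromosome 12 neighbour 4930480M12Rik was highest in wild-type replicate 2, at 3.62 against 3.27, and Gm9866 was lowest in wild-type replicate 7, at 4.90 against 5.07.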

How the results depend on the processing

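No paired analysis was possible because the genotypes share no replicate numbers. Cmpk2 stayed lower in knockout mice under all 21 alternatives run for it (-0.44 to -0.37), Rsad2 under its 21 (-0.32 to -0.17) and the gap between the pair and the genes elsewhere under its 20 (-0.39 to -0.29), while the differences of Ifit1, Ifit3, Isg15, Irf7, Usp18 and Oasl2 took both signs and that of Ifih1 stayed between 0.10 and 0.20. The mice without Y-linked transcripts alone (2 wild-type, 3 knockout) were not among these alternatives. In them Cmpk2 differed by -0.43, Rsad2 by -0.08 and Ifih1 by 0.03. Of the 9 genes 0 to 1 passed when a mouse was left out (1, Cmpk2, without knockout replicate 8, at -0.44 and a limma adjusted p of 0.0155 against 0.0983 with it), a count that the choice of the genes bears on, and of the 113 interferon pathway genes 0 passed in limma under every alternative run. Over all probe sets, 2 to 6 passed when a mouse was left out. There were 14 with the mean of the Y-linked genes in the fit, 7 over all 41345 probe sets, 1 without the mice with liver or adrenal transcripts, and 0 in limma among probe sets above the median level or, after adjustment, in the exact rank-sum test, which had 1123 at an unadjusted p under 0.05. The smallest adjusted p of the exact rank-sum test was 0.252.

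The correlations moved more. Leaving out 1 mouse, r of Cmpk2 with Rsad2 ran from -0.33 to 0.91 in wild-type and from -0.01 to 0.71 in knockout mice, and that of Rsad2 with the genes elsewhere from -0.65 to 0.71 in wild-type mice. The negative wild-type values of Cmpk2 with Rsad2, Cmpk2 with the genes elsewhere and Rsad2 with the genes elsewhere turned to 0.85, 0.57 and 0.30 without the 2 farthest mice, to 0.14, 0.11 and 0.14 over all 15 mice with genotype means subtracted, and to 0.07, 0.22 and 0.69 within the mice with Y-linked transcripts, and Oasl2 turned to -0.19 without the 2 farthest wild-type mice. The cause was not tested. Of the 9 genes, those lower with Y-linked transcripts numbered 2 to 5 when a mouse was left out, and 2 without the mice with liver or adrenal transcripts, a fit on fewer mice.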
